A study of Homo sapiens with 16 samples.

Results

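In MDA-MB-231 cells, the H3K4me3 mark of active promoters was set against the H3K27me3 mark of Polycomb repression, by the positions of their peaks on the autosomes. The members were the 4 chromatin immunoprecipitation and sequencing (ChIP-seq) libraries of these marks in this line, 2 replicates of H3K4me3 and 2 replicates of H3K27me3, out of 16 samples in the series. Each library was placed by the cell line and mark in its labels. The H3K4me3 lists held 16008 and 15642 autosomal peaks and the H3K27me3 lists 8408 and 30238 (replicates 1 and 2 in each case). MDA-MB-231 is a human breast cancer line that the labels describe as derived from a metastatic site. The same pair of marks in MCF-10A, a human mammary epithelial line that does not form tumours and whose cells the labels call luminal ductal, served as the closest comparison (4 libraries). The 2 H3K9me2 libraries of MDA-MB-231 served only to set another repressive mark beside H3K27me3 in its position relative to H3K4me3. All cells were untreated as far as the labels say and were harvested below confluence. H3K4me3 was precipitated with a mouse monoclonal antibody and H3K27me3 with a rabbit polyclonal antibody, so the antibody's kind differs together with the mark. The lists carry no gene names, so the identity of the lines was not checked against marker genes here, and regions are named by position on hg19.

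H3K4me3 is placed at promoters by the SET1 and MLL family of methyltransferases, and it marks promoters that are active or ready for activation. H3K27me3 is placed by EZH2, the catalytic subunit of Polycomb repressive complex PRC2, and is read by CBX proteins of the complex PRC1, which keep genes silent. The marks are held apart at most places, because PRC2 works poorly on a histone tail that already carries H3K4me3. In embryonic stem cells many promoters of developmental regulators carry both marks and are called bivalent. Peaks of a whole culture cannot show whether both marks sit on the same nucleosome, the same allele or even in the same cells, so the word overlap is used here only for positions.

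The H3K4me3 lists of MDA-MB-231 were alike in size and the H3K27me3 lists were not. H3K4me3 covered 20.97 Mb in replicate 1 and 21.04 Mb in replicate 2, whereas H3K27me3 covered 6.50 Mb and 19.5 Mb. The median peak width was 1217 and 1254 bp for H3K4me3 against 734 and 563 bp for H3K27me3, and the 2 groups did not overlap. The log2 ratio of the mean of these medians, H3K4me3 over H3K27me3, was 0.93 (two-sided exact permutation test over libraries, p = 0.333, the smallest p that 2 against 2 allow). For peak number the log2 ratio was −0.29 (exact permutation p = 1). Without the short H3K27me3 replicate 1 it was −0.93, and without replicate 2 it was 0.91, so the direction for peak number depends on the replicate. For covered bases the log2 ratio was 0.69 (exact permutation p = 0.333), 0.11 without H3K27me3 replicate 1 and 1.69 without replicate 2. Authors' scores of at least 100 were held by 87.8% and 89.0% of the H3K4me3 peaks, against 8.46% and 23.4% of the H3K27me3 peaks. No read counts came with the lists, so the depth behind any peak is unknown, and a short list cannot be told apart from a shallow or weakly enriched library.

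A small share of H3K27me3 peaks overlapped H3K4me3 in MDA-MB-231, but H3K4me3 also took up little of the autosomes. The H3K4me3 peaks of both replicates, joined where they shared at least 1 bp, gave 15909 regions, of which 13867 (87.2%) had a peak in both replicates. All 15909 regions together covered 0.81% of the autosomal span. Of the H3K27me3 peaks, 129 of 8408 in replicate 1 (1.53%, exact 95% interval 1.28 to 1.82%) and 300 of 30238 in replicate 2 (0.992%, 0.883 to 1.11%) shared at least 1 bp with these regions. The intervals cover counting error only. The shares of the replicates lay further apart than that counting error. When both lists were limited to their 8408 highest scores, the shares were 1.53% in replicate 1 and 1.69% in replicate 2. Per base, H3K27me3 cover inside the regions was 1.04 and 0.722 times its autosomal mean in replicates 1 and 2. The share of peaks that position alone would place on H3K4me3 was not computed.

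Of the H3K4me3 peaks, too, a small share overlapped H3K27me3, whose lists covered 0.226% and 0.676% of the autosomal span. In H3K4me3 replicate 1, 96 of 16008 peaks (0.5997%) overlapped H3K27me3 replicate 1 and 218 (1.36%) overlapped H3K27me3 replicate 2. In H3K4me3 replicate 2, 111 of 15642 peaks (0.710%) overlapped H3K27me3 replicate 1 and 237 (1.52%) overlapped H3K27me3 replicate 2. The value thus followed the length of the H3K27me3 list and hardly depended on which H3K4me3 list was used. The shared bases of the 4 pairs of lists came to between 39.6 and 93.98 kb. That was 0.189 to 0.447% of the H3K4me3 bases and 0.444 to 0.708% of the H3K27me3 bases.

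Abutting peaks were rarer still, but the space next to H3K4me3 was small too. The first 500 bp outside the regions held 0.515% of the autosomal span. The share of peaks that position alone would make abutting was not computed. An H3K27me3 peak was called abutting when it shared no base with an H3K4me3 region and at most 100 bp lay between their edges. This held for 10 peaks of H3K27me3 replicate 1 (0.119%, exact 95% interval 0.0570 to 0.219%) and 40 peaks of replicate 2 (0.132%, 0.0945 to 0.180%). None of them adjoined an H3K4me3 region with a gap of 0 bp, and 1 and 7 lay within 10 bp. A further 75 and 257 peaks (0.892% and 0.850%) lay more than 100 bp and up to 1 kb away. Seen from the 13867 H3K4me3 regions found in both replicates, 7 were abutted in replicate 1 and 18 in replicate 2, and 0 were abutted in both.

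Most H3K27me3 peaks lay more than 10 kb from the nearest H3K4me3 peak, as did most of the autosomal span. The median edge-to-edge distance was 73.1 kb in replicate 1 and 75.1 kb in replicate 2, with overlapping peaks counted as 0. The nearest 25% of the peaks lay within 29.99 kb in replicate 1 and within 31.4 kb in replicate 2, and 90% lay within 266 kb and 262 kb. The shares within 5 kb were 5.74% and 4.88%, those within 10 kb 9.90% and 9.18%, and those within 50 kb 37.8% and 36.8%. Beyond 100 kb lay 38.3% and 39.6%, and the farthest peaks were 1326 kb and 1404 kb away. The autosomal span itself is often far from H3K4me3, with 21.9% of it beyond 500 kb. The class from 5 to 10 kb held 4.24% of the span and 4.15% and 4.29% of the peaks. That from 50 to 100 kb held 13.96% of the span and 23.9% and 23.5% of the peaks. Although one list was several times longer than the other, the 2 distributions followed each other closely, as the plot of cumulative distances shows.

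**Figure D1:**
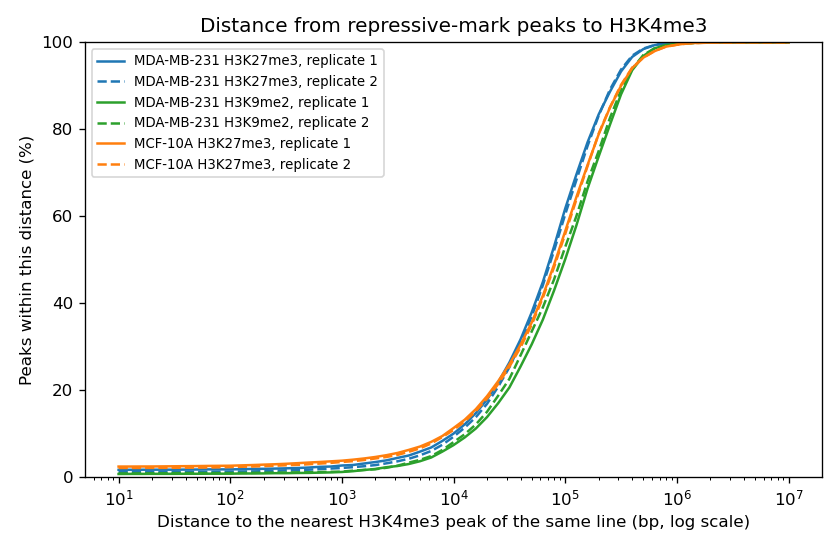
Share of peaks (y axis, %) that lie within a given distance (x axis, bp, log scale) of the nearest H3K4me3 peak of the same line; 1 curve per library, with overlapping peaks at distance 0. The 2 H3K27me3 curves of MDA-MB-231 nearly coincide, with medians of 73.1 and 75.1 kb, and lie left of the MDA-MB-231 H3K9me2 curves, with medians of 99.9 and 91.8 kb.

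Distances depend on how much of the genome lies at each distance, so the cover of H3K27me3 was also taken per base. The share of bases covered by H3K27me3 peaks within a distance class was divided by the share covered over the whole autosomal span (0.226% in replicate 1 and 0.676% in replicate 2). Inside H3K4me3 regions this ratio was 1.04 and 0.722. It was 1.70 and 1.38 in the first 500 bp outside the regions, and 1.17 and 1.13 from 500 bp to 1 kb. From 2 to 5 kb it was lowest within the nearest 20 kb outside H3K4me3, at 0.846 and 0.749. The ratio then reached 1.74 and 1.72 from 50 to 100 kb and was 0.0696 and 0.0630 beyond 500 kb, a class that held 21.9% of the span.

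H3K27me3 cover around H3K4me3 in MDA-MB-231 thus had 2 maxima, a narrow one at the edge of the regions and a broad one 50 to 200 kb away, with a dip between them in both replicates. Both MCF-10A H3K27me3 lists had the same shape. Their ratios were 2.82 and 2.61 in the first 500 bp, 0.956 and 0.920 from 2 to 5 kb and 1.53 and 1.52 from 50 to 100 kb. H3K27me3 and H3K4me3 also shared regions at a larger scale. In bins of 1 Mb, the 25% of bins with the most H3K4me3 held on average 5.37 kb of H3K27me3 in replicate 1 and 15.8 kb in replicate 2, against 0.912 and 2.77 kb in the 25% with the least. Across 2405 bins the covered bases of both marks correlated with Spearman's rho of 0.37 and 0.39 and Pearson's r of 0.25 and 0.24. These values describe the lists, and neighbouring bins are not independent. The part that gene density or base composition plays in them was not tested.

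**Figure D2:**
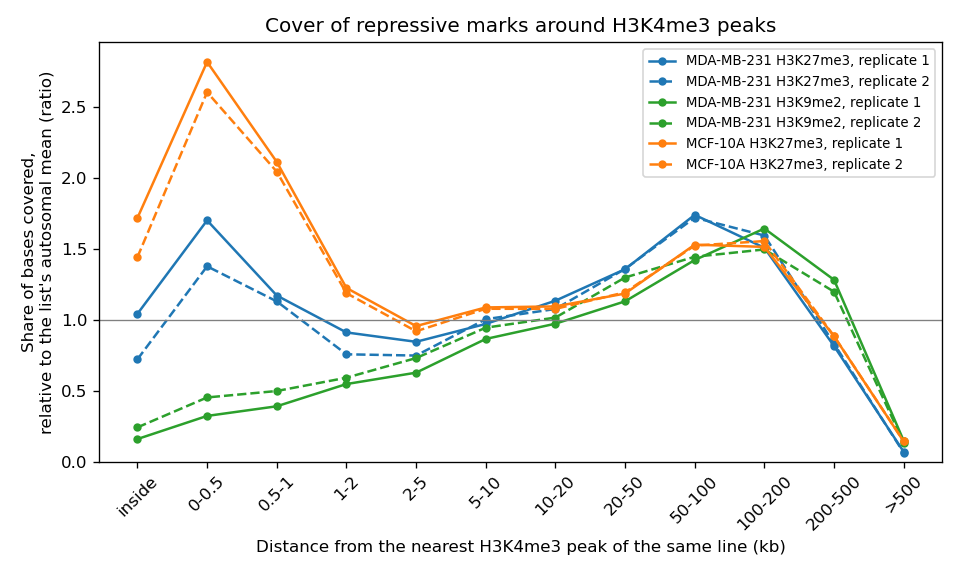
Share of bases covered by each list, relative to that list's mean over the autosomes (y axis, ratio, grey line at 1), in classes of distance from the nearest H3K4me3 peak of the same line (x axis, kb); 1 line per library. Inside H3K4me3 the MDA-MB-231 H3K27me3 libraries stand at 1.04 and 0.722, the MDA-MB-231 H3K9me2 libraries at 0.160 and 0.242, and the MCF-10A H3K27me3 libraries at 1.72 and 1.44.

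H3K9me2, the other repressive mark measured in MDA-MB-231, overlapped H3K4me3 less. It is placed mainly by the enzymes EHMT1 and EHMT2 and marks silent chromatin. The share of H3K27me3 peaks that overlapped H3K4me3 averaged 1.26 ± 0.383%, against 0.637 ± 0.0645% of H3K9me2 peaks (SD, n = 2 each, exact permutation p = 0.333). The H3K9me2 peaks were wider, with medians of 2200.5 and 1873.5 bp, and in smaller number, at 6086 and 4980. Abutting peaks made up 0.126 ± 0.00944% of H3K27me3 and 0.0931 ± 0.0387% of H3K9me2 peaks (SD, n = 2 each, exact permutation p = 0.667), and here the libraries of the 2 marks overlapped. Inside H3K4me3 regions the cover ratio averaged 0.883 ± 0.227 for H3K27me3 and 0.201 ± 0.0582 for H3K9me2 (SD, n = 2 each, exact permutation p = 0.333). The median distance averaged 74.1 ± 1.39 kb for H3K27me3 and 95.8 ± 5.70 kb for H3K9me2 (exact permutation p = 0.333). In overlap, cover ratio and median distance every H3K27me3 library lay on the same side of every H3K9me2 library, with the smallest p that 2 against 2 allow. When all 4 lists were held to their 4980 highest scores, this order stayed in each measure, with overlap shares of 1.95% and 1.87% for H3K27me3 against 0.663% and 0.683% for H3K9me2 and median distances of 70.4 and 71.6 kb against 97.6 and 91.8 kb. With scores of at least 100 it stayed for overlap and cover ratio but not for distance, where H3K27me3 stood at 67.9 and 71.8 kb and H3K9me2 at 89.96 and 68.6 kb. H3K9me2 showed no maximum at the edge, with ratios of 0.323 and 0.453 in the first 500 bp.

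The overlap of H3K27me3 with H3K4me3 was lower in MDA-MB-231 than in MCF-10A. The share of H3K27me3 peaks on H3K4me3 was 1.53% and 0.992% in MDA-MB-231 against 2.28% and 1.96% in MCF-10A, a mean difference of −0.86 percentage points (exact permutation p = 0.333, the smallest possible). At 8408 peaks per list the shares were 1.53% and 1.69% in MDA-MB-231 against 4.59% and 4.29% in MCF-10A, a difference of −2.83 points. Without MCF-10A H3K4me3 replicate 2, however, the difference at full length was only −0.10 points. Over single pairs of lists the shares ran from 0.754 to 1.33% in MDA-MB-231 and from 1.26 to 2.18% in MCF-10A, so these ranges overlap. The cover ratio inside H3K4me3 averaged 0.883 ± 0.227 in MDA-MB-231 and 1.58 ± 0.195 in MCF-10A, and in the first 500 bp outside it averaged 1.54 ± 0.229 in MDA-MB-231 and 2.71 ± 0.151 in MCF-10A (SD, n = 2 each, exact permutation p = 0.333 for both).

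Abutting peaks made up 0.126 ± 0.00944% of H3K27me3 peaks in MDA-MB-231 and 0.218 ± 0.000120% in MCF-10A (SD, n = 2 each, exact permutation p = 0.333), a difference of −0.093 points that came to −0.033 points without MCF-10A H3K4me3 replicate 2. The median distance was shorter in MDA-MB-231, at 73.1 and 75.1 kb against 82.5 and 84.0 kb in MCF-10A (exact permutation p = 0.333). This order turned round when the lists were held to 8408 peaks each, at 73.1 and 72.3 kb in MDA-MB-231 against 68.3 and 71.1 kb in MCF-10A. With scores of at least 100 the order was lost, as the libraries of the lines interleaved. MDA-MB-231 then stood at 77.5 and 80.7 kb against 76.5 and 79.2 kb in MCF-10A. The mean difference of 1233 bp was smaller than its SD of 2977 bp. Leaving out single H3K4me3 libraries moved the difference of −9.19 kb to −4.00 kb (without MDA-MB-231 replicate 1), −3.42 kb (without MDA-MB-231 replicate 2) and −20.7 kb (without MCF-10A replicate 2). The distance thus gave no stable difference between the lines.

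Overlap with H3K4me3 was most frequent among the H3K27me3 peaks with the highest scores. In the top 20% of H3K27me3 replicate 1 in MDA-MB-231, 56 of 1681 peaks (3.33%, exact 95% interval 2.53 to 4.30%) overlapped H3K4me3, against 9 of 1682 (0.535%, 0.245 to 1.01%) in the lowest 20%. In replicate 2 the shares were 1.87% (1.54 to 2.24%) in the top 20% and 0.827% (0.614 to 1.09%) in the lowest. The classes between were not in strict order in either replicate. Peaks that only lay near H3K4me3, with up to 5 kb between them and no shared base, made up 4.58% of the top and 3.63% of the lowest 20% in replicate 1, and 4.08% and 3.70% in replicate 2.

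H3K27me3 peaks seen in both replicates also lay on H3K4me3 more often. Of the 4049 peaks of replicate 1 that replicate 2 shared, 93 (2.30%, exact 95% interval 1.86 to 2.81%) overlapped H3K4me3, against 36 of 4359 peaks (0.826%, 0.579 to 1.14%) found in replicate 1 alone. Of the 4437 peaks of replicate 2 that replicate 1 shared, 94 (2.12%, 1.72 to 2.59%) overlapped H3K4me3, against 206 of 25801 (0.798%, 0.693 to 0.915%) found in replicate 2 alone. Supported peaks were also wider, with medians of 756 against 719 bp in replicate 1 and 700 against 548 bp in replicate 2. The part that width plays in the overlap was not tested.

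On the H3K4me3 side the order ran the other way. The 13867 regions were ranked by the lower of their 2 H3K4me3 scores. In the lowest 20%, 60 of 2774 regions (2.16%, exact 95% interval 1.65 to 2.78%) overlapped H3K27me3 replicate 1 and 135 (4.87%, 4.10 to 5.73%) overlapped replicate 2. In the highest 20% the counts were 2 of 2773 (0.0721%) and 6 of 2773 (0.216%). By width, too, the narrowest 20% had the most overlap, at 1.33% and 2.99%, and the broadest had 0.252% and 0.613%, although a broad region offers more bases to overlap. In MCF-10A, too, the top 20% of H3K27me3 scores and the lowest 20% of H3K4me3 scores had the most overlap, as the plot of overlap by score shows.

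**Figure D3:**
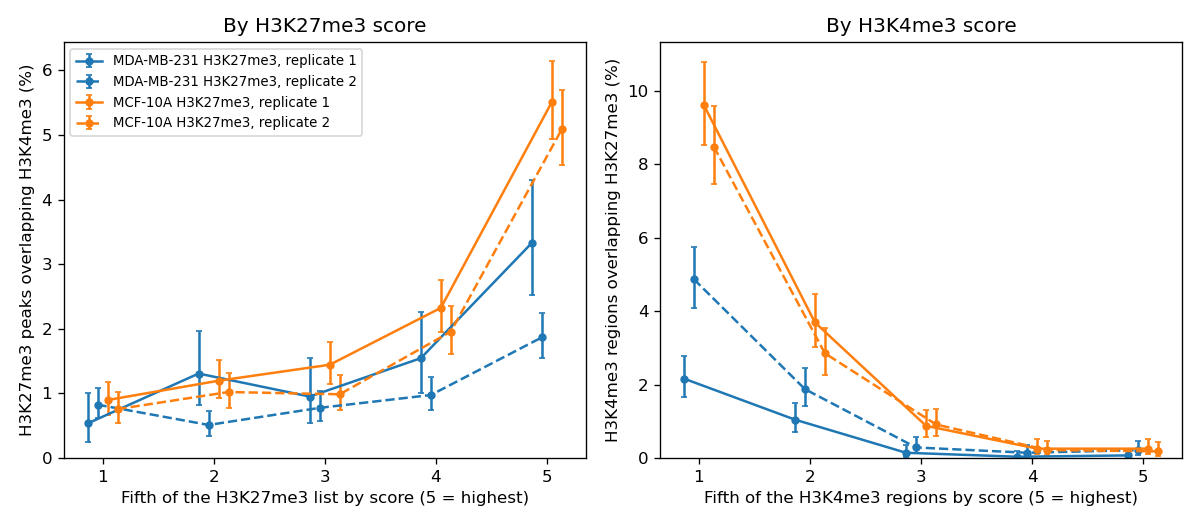
Left, share of H3K27me3 peaks that overlap H3K4me3 (y axis, %) by class of the H3K27me3 score (x axis, 20% of peaks each, low to high). Right, share of H3K4me3 regions found in both replicates that overlap H3K27me3 (y axis, %) by class of the lower H3K4me3 score (x axis, 20% of regions each). Points are libraries of H3K27me3 and bars are exact 95% intervals for counting error. In MDA-MB-231 the share is 3.33% and 1.87% in the top 20% of H3K27me3, and 2.16% and 4.87% in the lowest 20% of H3K4me3.

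Regions with both marks were then followed one by one. Of the 13867 H3K4me3 regions, 96 (0.692%) overlapped H3K27me3 replicate 1, 205 (1.48%) overlapped replicate 2, and 61 (0.440%, exact 95% interval 0.337 to 0.565%) overlapped both. The 61 regions were 63.5% of the first set and 29.8% of the second, and 179 regions overlapped a single replicate. In MCF-10A, 272 of 13686 regions (1.99%, 1.76 to 2.24%) overlapped both replicates. At 8408 peaks per H3K27me3 list the counts were 38 in MDA-MB-231 and 160 in MCF-10A. Scores of at least 100 in both marks left 7 regions in MDA-MB-231 and 112 in MCF-10A. That threshold kept 8.46% and 23.4% of the H3K27me3 peaks in MDA-MB-231, against 26.3% and 25.7% in MCF-10A. A region had to overlap both replicates, so the shorter list limits these counts.

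The 61 regions were narrow and weakly marked by H3K4me3. Their median width was 1120 bp (middle 50% from 799 to 1417 bp), against 1527 bp (1111 to 2011.5 bp) for the 13627 regions without H3K27me3. The median percentile of their lower H3K4me3 score was 21.0, against 53.8. The 179 regions with a single H3K27me3 replicate had similar values, 1049 bp and percentile 22.96. H3K9me2 was found in both replicates at 1 of the 61 regions and at 17 of the 13627.

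Within these regions the overlap was mostly partial and ran over 1 edge. How much of this follows from the widths of the peaks and regions alone was not tested. Of the 96 regions overlapped by H3K27me3 replicate 1, 80 (83.3%) had H3K27me3 running over 1 edge, 11 had it wholly inside, 3 were covered from end to end and 2 had it over both edges with a gap between. Of the 205 regions overlapped by replicate 2, 140 (68.3%) had it over 1 edge, 48 wholly inside, 8 were covered and 9 had it over both edges. The median shared stretch was 436.5 bp and 384 bp, or 35.8% and 35.3% of the region. Only 15 regions were covered by 50% or more in both replicates, and 46 of the 61 (75.4%) held at least 1 base that lay in all 4 lists, with a median of 178 such bases over the 61. The other 15 held no base common to the 4 lists.

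Further H3K27me3 peaks within 5 kb outside a region's edges were frequent where the region itself overlapped H3K27me3. A peak that runs over an edge lies in the flank by construction, so only peaks that did not overlap the region were counted. Such a peak was present at 20 of the 96 overlapped regions in replicate 1 (20.8%, exact 95% interval 13.2 to 30.3%), against 230 of 13771 regions without overlap (1.67%). In replicate 2 it was present at 95 of the 205 overlapped regions (46.3%, 39.4 to 53.4%), against 489 of 13662 (3.58%). With edge-crossing peaks included, H3K27me3 lay on both sides at once at 27 regions in replicate 1 and 119 in replicate 2, of which 13 and 67 were also overlapped.

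The 12 top-ranked regions, ranked by the lowest of their 4 within-list score percentiles, differed in how the marks met. The first lay at chr2:90447332-90451157, 3826 bp wide, with H3K4me3 scores of 3100 in both replicates. Its H3K27me3 peaks, with scores of 91.8 and 469, lay mostly right of its centre (replicate 1 from 90449336 to 90450438, replicate 2 from 90448876 to 90450967), and 1103 bp lay in all 4 lists. The second, at chr2:91669452-91671913, was nearly filled by both marks. Its H3K27me3 peaks ran from 91669538 to 91671724 in replicate 1 and from 91669498 to 91671800 in replicate 2, with scores of 152 and 590. With 2072 bp in all 4 lists it held the most of the 61 regions.

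The first and second regions lay 1.22 Mb apart on chromosome 2, and both carried both marks in both MCF-10A replicates as well. They were therefore present in all 8 lists of the pair of marks. Neither overlapped an H3K9me2 peak of MDA-MB-231. The input libraries came without peak lists and were not analysed here, so the part that input signal plays in these peaks was not tested. Whether these or the other named regions lie in repeated or poorly mapped sequence was not examined either.

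The third region, chr19:35738554-35740854, had an H3K27me3 peak wholly inside it in each replicate and no H3K27me3 in MCF-10A, where H3K4me3 was present in both replicates. The fourth, chr14:56584384-56586405, carried both marks in both lines. The fifth, chr20:13201245-13203067, was overlapped at its left edge in both replicates of MDA-MB-231, but no base lay in all 4 lists. It had H3K4me3 alone in MCF-10A. The sixth, chr9:69784941-69787883, had H3K4me3 scores of 3100 in both replicates and an H3K27me3 peak near its centre in each, with 421 bp in all 4 lists. It carried both marks in MCF-10A.

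**Figure D4:**
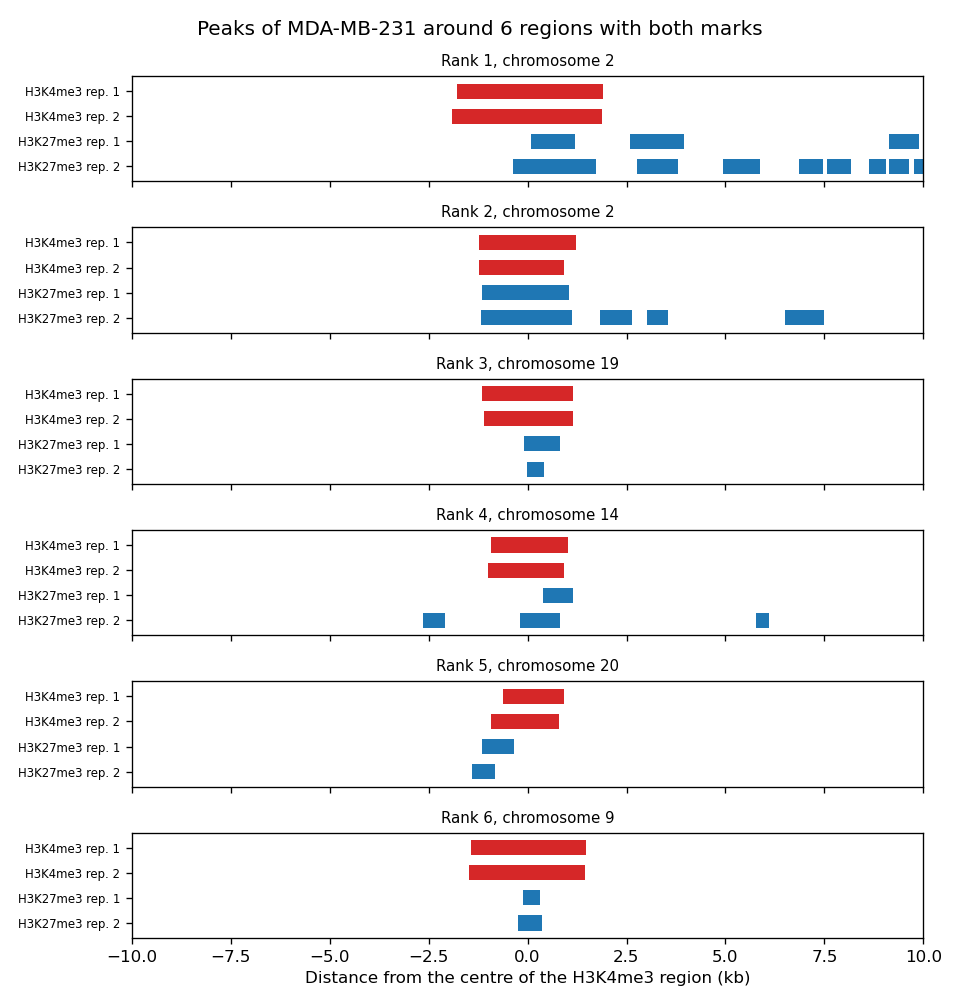
Peaks of the 2 H3K4me3 lists (red) and the 2 H3K27me3 lists (blue) of MDA-MB-231 around the 6 top-ranked regions with both marks; the x axis is the distance from the centre of the H3K4me3 region in kb and each row of a panel is a library. Region 2 is filled by both marks with 2072 bp in all 4 lists, whereas in region 5 H3K27me3 only crosses the left edge.

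Ranks 7 to 12 lay at lower percentiles, from 38.2 down to 27.4. They were chr5:783997-785885, chr11:1592386-1594244, chr10:46970100-46971436, chr7:149468310-149470797, chr1:228870710-228871903 and chr11:58939142-58940429. The region on chromosome 10 had no H3K4me3 in MCF-10A but H3K27me3 in both replicates there. By shared bases, chr9:67789959-67792427 came second with 1196 bp in all 4 lists, although its H3K27me3 scores lay only at percentiles 13.6 and 22.03 of their lists. It also overlapped H3K9me2 of MDA-MB-231 in both replicates, the single region of the 61 to do so. Next by shared bases came chr7:65111916-65113065 with 909 bp and chr7:64600859-64601659 with 595 bp, and both had H3K27me3 in both MCF-10A replicates.

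The regions with both marks in MDA-MB-231 often carried H3K27me3 in MCF-10A too. Both MCF-10A replicates of H3K27me3 overlapped 28 of the 61 regions (45.9%, exact 95% interval 33.1 to 59.2%) and 65 of the 179 (36.3%, 29.3 to 43.8%), against 409 of the 13627 without H3K27me3 in MDA-MB-231 (3.00%, 2.72 to 3.30%). H3K4me3 in both MCF-10A replicates was found at 41 of the 61 regions (67.2%), 117 of the 179 (65.4%) and 12160 of the 13627 (89.2%). Both marks in both replicates of MCF-10A were present at 14 of the 61. A further 26 had H3K4me3 alone there, and 9 had H3K27me3 without any H3K4me3 peak.

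**Figure D5:**
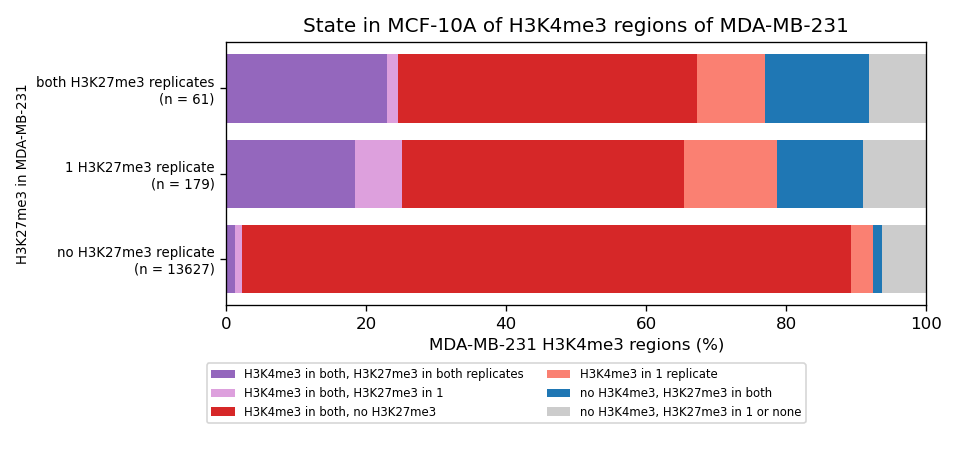
State in MCF-10A (colours) of the H3K4me3 regions of MDA-MB-231, as a share of regions (x axis, %), for regions with H3K27me3 in both, 1 or no replicate of MDA-MB-231 (rows, with the number of regions). H3K4me3 and H3K27me3 in both MCF-10A replicates are found at 22.95%, 18.4% and 1.25% of these rows.

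The 61 regions were spread over 17 of the 22 autosomes, with 6 on chromosome 11 and 5 each on chromosomes 6, 7, 9 and 20. Of the 15909 H3K4me3 regions of either replicate, chromosomes 11, 6, 7, 9 and 20 held 842, 917, 834, 724 and 414. Chromosome 1 held 1673 of them and 4 of the 61. By the lower of the replicate values, chromosomes 8, 2 and 7 had the highest shares of H3K27me3 peaks on H3K4me3. The shares were 3.17% and 1.92% on chromosome 8, 1.97% and 1.83% on chromosome 2, and 1.63% and 1.66% on chromosome 7 (replicates 1 and 2). By the higher of the replicate values, chromosomes 16, 1 and 15 had the lowest shares. Chromosome 1 had 0.820% and 0.825%, chromosome 15 had 0.870% and 0.460%, and chromosome 16 had 0.721% in replicate 2. In replicate 1 chromosome 16 had 0 of 118 peaks, which allows a share of up to 2.54% by the limit of 3 counts (the exact 95% interval reaches 3.08%). With 7 and 14 overlapping peaks behind the highest shares, on chromosome 8, the exact 95% intervals (1.28 to 6.42% and 1.05 to 3.20%) include the share over all autosomes in replicate 1 and lie just above it in replicate 2. Chromosome 20 held the most H3K27me3 peaks of replicate 1 with 1048, and second most of replicate 2 with 3100, at shares of 0.954% and 0.581%.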

How the data were processed

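Per the labels, cultures were harvested subconfluent, chromatin was sonicated and precipitated, and paired-end libraries were made. Build hg19 and the tools MACS 1.4, Bowtie2, CASAVA 1.6 and bedtools come from the submitters' processing notes, which as used here give them no role or setting. How the inputs entered the peak calls is not stated there. The deposited lists, 1 per replicate, give each peak's position, name and the authors' score, at least 50 and of unknown scale, which served for ranks and thresholds inside a list. Peaks on chromosomes 1 to 22 were used, which left out 1.00% to 3.97% of a list. Positions count from 1.

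Overlaps, gaps and distances were computed with numpy 2.4.6 and scipy 1.17.1, tested on simulated intervals. Distances run to the joined H3K4me3 peaks of both replicates of the same line. The autosomal span, 2880 Mb, ends at the largest peak end of each chromosome in any list used. Comparisons between groups used two-sided exact permutation tests over libraries; replicates, called biological in the labels, give the only error. Intervals are exact Clopper-Pearson 95% intervals and treat peaks as independent. The members, lists and named-region rule were chosen with earlier results of these data known. Ranked regions with both marks (12), the 5 with the most shared bases and the 3 chromosomes at either end were named; regions abutted in both replicates would have been named, but there were 0. Gene names were not assigned, since the annotation at hand is of another build. H3K9me2 on the regions, the H3K9me2 settings of equal length and score, further peaks in the flanks, and the gap between the first and second, were looked at after their values were seen. Alternatives covered the H3K4me3 set, score and overlap thresholds, list length, gap, distance definition, chromosome X, the replicate number and each replicate left out.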

Additional observations from a re-analysis of the deposited data

How the results depend on the processing

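Of 122 alternatives computed, 69 stayed within the spread between replicates (counts within 1.5 times) and 53 did not. MDA-MB-231 minus MCF-10A kept its sign in 15 of 15 settings for the overlap share (−2.83 to −0.10 points) and 14 of 14 for the abutting share (−0.39 to −0.0018 points). The settings reuse the same libraries and are not independent. At a gap of 0 bp the abutting difference rests on 1 peak of MCF-10A replicate 2. At 10 bp the difference of −0.0054 points was smaller than its SD of 0.0083. For median distance it kept its sign in 13 of 15. Apart from the region counts with a replicate left out, the cause of the changes below was not tested. Differences are MDA-MB-231 minus MCF-10A, and shares and distances are means over replicates of MDA-MB-231.

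With H3K4me3 regions of both replicates only, the abutting share was 0.0932% (difference −0.032) and the median distance 85580 bp (difference −11674 bp). With regions of either replicate, MCF-10A had 414 regions with both marks. With scores of at least 100, the overlap share was 2.05% (difference −1.37), the abutting share 0.0424% (difference −0.22), the distance 79108 bp (difference 1233 bp), the region counts 7 in MDA-MB-231 and 112 in MCF-10A, and the share of H3K4me3 peaks overlapped 0.302%. The log2 ratios of H3K4me3 over H3K27me3 were then 1.85 for peak number, 2.34 for covered bases and 0.41 for width. This threshold kept 8.46% of MDA-MB-231 H3K27me3 replicate 1 and 23.4 to 26.3% of the other H3K27me3 lists. At equal list lengths the differences were −2.83 for overlap, −0.25 for abutting and 3018 bp for distance, with 38 regions in MDA-MB-231 and 160 in MCF-10A.

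Asking for 50% of the H3K27me3 peak gave an overlap share of 0.601% (difference −0.33), its midpoint 0.639% (difference −0.36). Asking for 50% of the H3K4me3 region left 15 regions in MDA-MB-231 and 94 in MCF-10A, and 0.452% of H3K4me3 peaks. Abutting shares were 0% (difference −0.0018) at a gap of 0 bp, 0.0175% (difference −0.0054) at 10 bp and 0.997% (difference −0.39) at 1 kb.

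For H3K27me3 minus H3K9me2, 2 settings were chosen after seeing the data. Equal lengths gave differences of 1.23 points for overlap and 0.934 for the cover ratio, and scores of at least 100 gave 1.66 points, 1.35 and −9.46 kb for distance.

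With the replicate block (H3K27me3 against the H3K4me3 list of the same number), the overlap share was 1.00%, the median distance 79505 bp and the log2 ratios −0.011, 0.90 and 0.94 for peak number, covered bases and width. The labels do not say that a number marks a shared culture, and 2 pairs cannot show it.

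With each replicate left out in turn, the overlap difference ran from −1.15 to −0.10, the abutting difference from −0.0995 to −0.0329, the distance from 73088 to 79851 bp and its difference from −20716 to −3415 bp. The log2 ratio of peak number ran from −0.93 to 0.91 and that of covered bases from 0.11 to 1.69. The region count in MDA-MB-231 ran from 62 to 205. Leaving out a replicate also lifts the demand for a peak in it. The counts of 205 and 96 without an H3K27me3 replicate are thus those of the remaining replicate. Depth is unknown, so peaks missing from a list may have been too weak to call at its depth.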
